A study of Oryza sativa Japonica Group with 18 samples.

Results

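Cellulose, the main load-bearing polymer of plant cell walls, is made at the plasma membrane by complexes of cellulose synthase (CESA) proteins. Vascular plants use one set of CESA proteins for the thin primary wall of growing cells and another for the thick secondary wall of vessels and fibres. In rice the secondary wall complex holds CESA4, CESA7 and CESA9, and loss of any of them gives brittle culms. BC1 (BRITTLE CULM1), a COBRA-like protein held at the membrane by a lipid anchor, is needed for cellulose assembly in the same walls.

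The genes described here are 9 rows of a table of 38610 genes, chosen by locus ID. The secondary wall class has 4 members, CESA4 (Os01g0750300), CESA7 (Os10g0467800), CESA9 (Os09g0422500) and BC1 (Os03g0416200). The primary wall class has 5 members, CESA1 (Os05g0176100), CESA3 (Os07g0424400), CESA5 (Os03g0837100), CESA6 (Os07g0252400) and CESA8 (Os07g0208500). The grouping into primary and secondary wall genes is background knowledge and used no value of these libraries. The choice of these members was made with earlier results of these data known. All 9 had at least 1 FPKM (fragments per unit of transcript length and of mapped fragments, so levels are per length) in all 18 libraries, and all passed the filter on low values.

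RNA was sequenced from leaves of Oryza sativa Japonica seedlings at the stage of 3 leaves, grown under 14 h of light and 10 h of dark. The 6 groups of 3 libraries were OsERF096-OX (an overexpression line, OX), OsERF096-RNAi (an RNA interference line, RNAi) and wild type (WT), each after 12 h at 4 °C (cold) and under normal growth (control). OsERF096 belongs, by its name, to the ethylene response factors, and the study compared how leaves of these lines respond to cold. The labels give neither the promoter nor the number of independent lines behind OX and RNAi, and the target gene's own row was not analysed here. Nothing in the labels ties a library to a plant of its own, so p-values measure only how these libraries vary, and that variation may be technical. The hour of freezing is not given, so cold and time of day cannot be told apart.

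WT control replicate 2 stood apart from the other libraries and holds low values for every member. It lay at 88.4 on the second principal component (14.8% of the variance), where the other libraries lay between -56.4 and 37.4. It was the lowest of the 18 libraries for all 9 members, at 0.0385 (CESA7) to 0.245 (CESA1) times the mean of the other 2 WT control libraries. On the log2(FPKM + 1) scale its difference from them ran from -4.35 to -2.01 over the members, against a median of -0.05 over all tested genes, and 2.25% of those genes were as low as the member with the smallest difference. Member calls are therefore given over 18 libraries, and also over 17, without this library, wherever they changed. Between 19597 and 20939 genes a library had at least 1 FPKM, and the read depth behind the values is unknown.

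Markers of leaf photosynthetic cells, CAB1R, CAB2R, RBCS and RCA, were all above 1 FPKM in every library, with summed levels of 9896 to 36572 FPKM. The shoot apex marker OSH1 and the root marker LSI2 were listed at 0 in every library. The other root marker, LSI1, had 0.575 to 14.6 FPKM over the 18 libraries. In WT control replicate 2 the photosynthetic sum was 35395 FPKM, against 14457 and 18391 FPKM in the rest of its group. That sum was 30886 to 32822 FPKM in control RNAi leaves and 13580 to 36572 FPKM in control OX leaves. The root sum, all of it LSI1, was 14.6 FPKM in WT control replicate 2, against 1.40 and 5.33 FPKM in its group. In control OX leaves it was 3.17 to 13.7 FPKM, and in control RNAi leaves 1.54 to 2.39 FPKM. The summed level of 5 markers of dividing cells was 7.13 to 11.7 FPKM in the cold libraries and 2.89 to 6.73 FPKM in the control libraries. The part of these differences in the member levels was not tested. In whole leaves, fewer cells of a type and less RNA per cell cannot be told apart.

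The primary wall genes CESA3 and CESA1 were the most abundant members, with medians of 249 and 181 FPKM over the 18 libraries. By mean FPKM they were above 98.4% and 97.5% of tested genes. CESA7 followed at 59.7 FPKM, then CESA8 at 42.6, CESA4 at 38.1, CESA6 at 31.5, and CESA9 at 30.3 FPKM, with CESA5 and BC1 the least abundant by median. The ranges over libraries of all these neighbours overlapped, so the order is one of medians. The plot of FPKM by group shows each library.

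**Figure D1:**
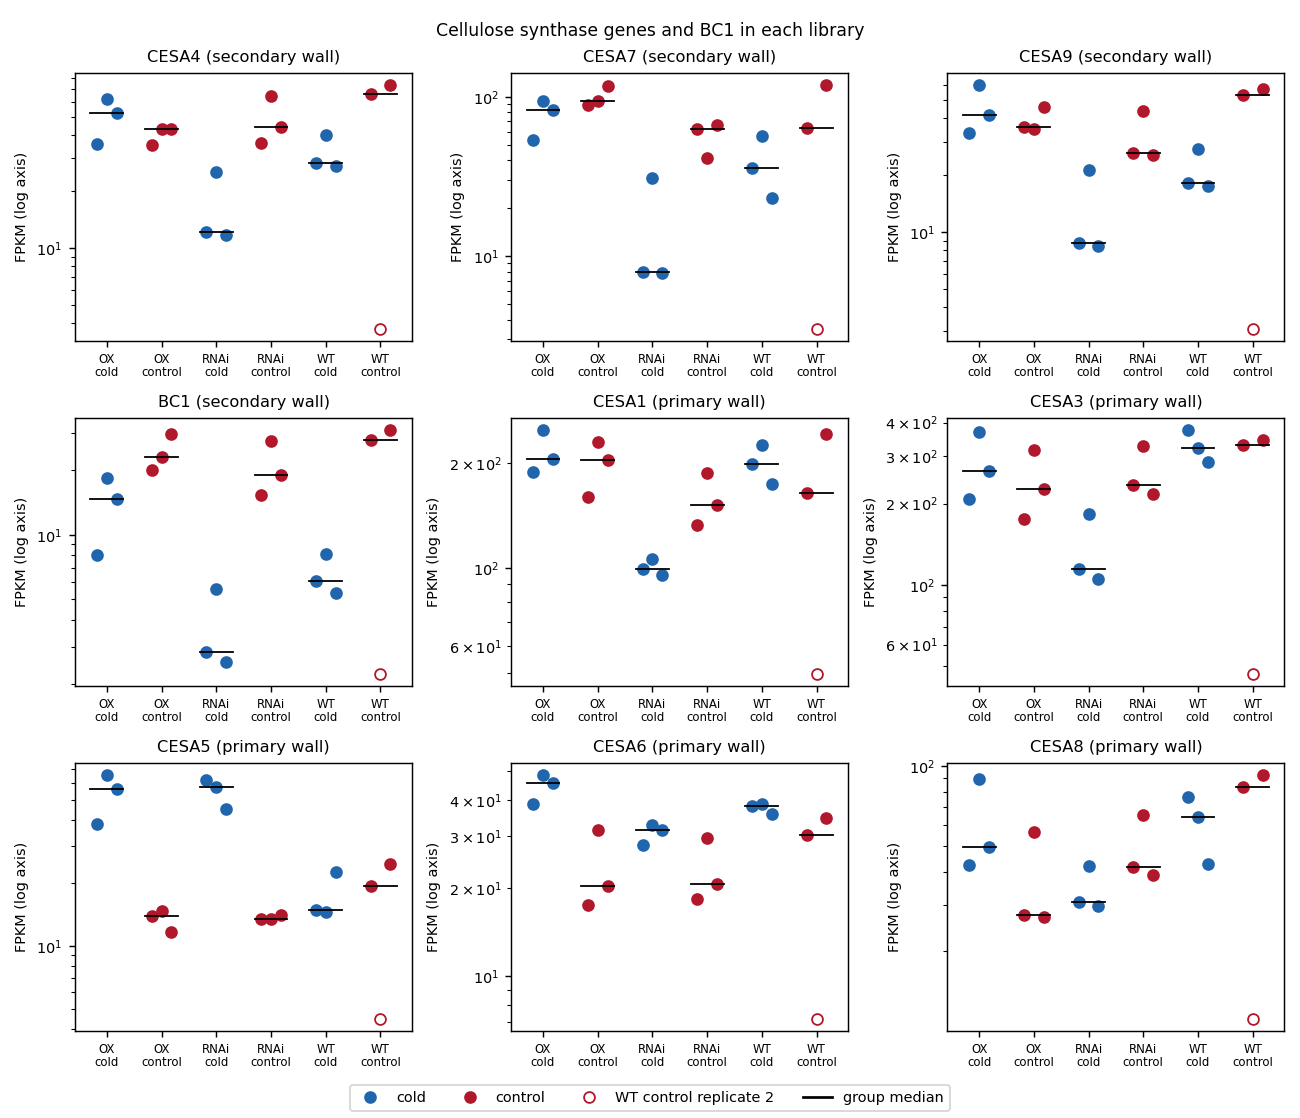
FPKM (log axis) of the 9 members in each library, by group from left to right (OX cold, OX control, RNAi cold, RNAi control, WT cold, WT control). Points are libraries, the line is the median of a group, and the open symbol is WT control replicate 2, which is the lowest of 18 libraries in every panel.

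The mean levels of the secondary wall genes were lowest in the cold RNAi leaves. CESA4, a catalytic subunit of the secondary wall complex, had 35.5, 62.0 and 52.0 FPKM in cold OX leaves and 35.1, 42.9 and 43.2 FPKM in control OX leaves. It had 12.2, 25.3 and 11.7 FPKM in cold RNAi leaves, against 36.1, 64.0 and 43.9 FPKM in control RNAi leaves. In WT it had 28.3, 40.1 and 27.4 FPKM in the cold and 65.9, 3.73 and 73.2 FPKM under control conditions. The cold and control libraries overlapped in OX, did not overlap in RNAi, and in WT were separate only without replicate 2 of the control. Without that library, cold WT lay wholly below control WT for 47.4% of tested genes.

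CESA7, a second subunit of the same complex, had the widest range of the secondary wall genes. It had 53.9, 94.2 and 82.1 FPKM in cold OX leaves, against 88.6, 94.1 and 118 FPKM in control OX leaves. Cold RNAi leaves had 7.92, 30.9 and 7.78 FPKM, and control RNAi leaves 62.5, 41.1 and 66.4 FPKM. Cold WT leaves had 35.6, 56.9 and 23.0 FPKM, against 64.0, 3.50 and 118 FPKM in control WT leaves. Replicate 2 was the highest cold RNAi library for CESA7, as it was for CESA4, and still lay under all 3 control RNAi libraries.

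CESA9 is the remaining subunit of the complex. It had 33.3, 59.6 and 41.7 FPKM in cold OX leaves and 36.0, 35.2 and 45.6 FPKM in control OX leaves. It had 8.74, 21.3 and 8.47 FPKM in cold RNAi leaves, against 26.1, 43.4 and 25.5 FPKM in control RNAi leaves. It had 18.2, 27.4 and 17.4 FPKM in cold WT leaves, against 53.3, 3.07 and 57.1 FPKM in control WT leaves. As for CESA4, only the RNAi groups were fully apart with all 18 libraries.

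BC1 is the COBRA-like gene of this class. It had 8.03, 18.4 and 14.7 FPKM in cold OX leaves, against 20.0, 23.0 and 29.5 FPKM in control OX leaves. It had 2.82, 5.56 and 2.53 FPKM in cold RNAi leaves, against 15.3, 27.5 and 19.0 FPKM in control RNAi leaves. It had 6.09, 8.13 and 5.34 FPKM in cold WT leaves, against 27.7, 2.24 and 30.7 FPKM in control WT leaves. The groups did not overlap in OX or RNAi, and in WT replicate 2 alone lay below the cold libraries.

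In cold against control RNAi leaves, BC1 fell by 2.24 ± 0.62 on the log2 scale (SE, limma with Benjamini-Hochberg adjustment over all tested genes, adjusted p = 0.00835), the only 1 of 4 secondary wall genes called, where 28.1% of all tested genes were called lower. CESA7 differed by -2.06 ± 0.85 (limma adjusted p = 0.0598), CESA4 by -1.54 ± 0.72 (limma adjusted p = 0.0932) and CESA9 by -1.32 ± 0.71 (limma adjusted p = 0.146). The 4 genes had a median log2 fold change of -1.80, against -0.16 over all tested genes, whose median was -0.18 in OX and -0.22 in WT. The library left out of the 17 enters this comparison through the shared estimate of spread alone. Over 17 libraries the standard errors were 0.28 to 0.44 and all 4 genes fell, with limma adjusted p of 0.000337 for CESA4, 0.00127 for CESA7, 0.00251 for CESA9 and 1.87e-05 for BC1, where 31% of tested genes were called lower. CESA7 was also called when RNAi cold replicate 2 alone was left out, at -2.67 (limma adjusted p = 0.0311). Over 18 libraries the cold and control groups did not overlap, in the lower direction, for 28.3% of tested genes in OX, 37.4% in RNAi and 37.6% in WT, and in the higher direction for 16.4%, 20.6% and 17.8%. Over 17 libraries the WT shares were 47.4% in the lower and 20.5% in the higher direction.

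In cold against control WT leaves, 0 of 4 secondary wall genes were called by limma over 18 libraries, and 0 had an unadjusted p under 0.05, where 45.7% of all tested genes were called. CESA4 differed by 0.18 ± 0.72 with a 95% interval of -1.35 to 1.71, CESA7 by 0.18 ± 0.85, CESA9 by -0.12 ± 0.71 and BC1 by -0.95 ± 0.62. Over 17 libraries 3 of the 4 fell, where 29.9% of tested genes were called lower. The log2 fold changes were then -1.12 ± 0.31 for CESA4 (limma adjusted p = 0.00997), -1.38 ± 0.35 for CESA9 (limma adjusted p = 0.00525) and -2.02 ± 0.33 for BC1 (limma adjusted p = 0.000213). CESA7 was at -1.25 ± 0.49 (limma adjusted p = 0.0536). The signs of the CESA4 and CESA7 differences in WT thus turned on 1 library, and all 4 values were lower without it.

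In cold against control OX leaves, 0 of 4 secondary wall genes were called over 18 libraries, and 0 had an unadjusted p under 0.05 in limma, where 36% of tested genes were called. CESA4 differed by 0.27, CESA9 by 0.17 and CESA7 by -0.41. BC1 differed by -0.83 ± 0.62 (limma adjusted p = 0.320) and was the single secondary wall gene called over 17 libraries, at the same fold change with a standard error of 0.29 (limma adjusted p = 0.0353), where 25.5% of tested genes were called lower.

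After cold, the OX libraries lay above the RNAi libraries for all 4 secondary wall genes, with no overlap for any of them. The log2 fold changes of OX over RNAi were 2.48 ± 0.85 for CESA7, 1.81 ± 0.71 for CESA9, 1.65 ± 0.62 for BC1 and 1.60 ± 0.72 for CESA4. Over 18 libraries limma called 0 of the 4, with the lowest adjusted p at 0.0981 for CESA7, where 5.94% of tested genes were called. All 4 were higher at an unadjusted p under 0.05, as were 13.8% of tested genes. Over 17 libraries it called all 4, with adjusted p of 0.00227 to 0.00294, where 6.94% of tested genes were called higher. Groups of OX and RNAi did not overlap in the higher direction for 19.4% of tested genes.

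The cold WT means of these 4 genes lay between the cold OX and the cold RNAi means. For OX over WT the log2 fold changes were 1.05 ± 0.71 for CESA9, 1.03 ± 0.85 for CESA7, 0.92 ± 0.62 for BC1 and 0.61 ± 0.72 for CESA4. None of these 4 was called over 18 libraries, none had an unadjusted p under 0.05, and limma called 12.9% of tested genes. CESA9 (limma adjusted p = 0.0313) and BC1 (limma adjusted p = 0.0440) were called over 17, where 11.6% of tested genes were called higher.

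For RNAi over WT in the cold the log2 fold changes were -1.45 ± 0.85 for CESA7, -0.98 ± 0.72 for CESA4, -0.76 ± 0.71 for CESA9 and -0.74 ± 0.62 for BC1. Again 0 of 4 were called over 18 libraries and 0 had an unadjusted p under 0.05, where 27.6% of tested genes were called. CESA4 (limma adjusted p = 0.0140) and CESA7 (limma adjusted p = 0.0201) were called over 17, where 15.3% of tested genes were called lower. These comparisons share the cold WT libraries.

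The cold responses of the lines were also tested against each other, and 0 of 4 secondary wall genes were called in any of these tests by limma in either fit. The OX response exceeded the RNAi response by 1.41 (BC1) to 1.80 (CESA4), with a lowest adjusted p of 0.601 over 18 libraries and 0.0870 over 17. In that test 0.0475% of tested genes were called over 18 libraries and 0.117% over 17, and 0 and 4 of the 4 genes had an unadjusted p under 0.05, against 7.78% of tested genes higher at that threshold over 17. The OX response differed from that of WT over 18 libraries by -0.59 ± 1.20 for CESA7, 0.09 ± 1.01 for CESA4, 0.12 ± 0.88 for BC1 and 0.29 ± 1.01 for CESA9 (lowest limma adjusted p = 0.784). Over 17 libraries these differences were 0.84 ± 0.66 for CESA7, 1.38 ± 0.42 for CESA4 (limma adjusted p = 0.0523), 1.19 ± 0.44 for BC1 and 1.55 ± 0.46 for CESA9 (limma adjusted p = 0.0511). In the test of OX against WT 10.4% of tested genes were called over 18 libraries and 8.52% over 17. For RNAi against WT the lowest limma adjusted p of the 4 was 0.168 over 18 libraries and 0.389 over 17. There 30.5% of tested genes were called over 18 libraries and 25.8% over 17. CESA7 passed in that test when WT control replicate 3 was left out (-3.17, limma adjusted p = 0.0390), which leaves replicate 2 as 1 of 2 control WT libraries.

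**Figure D2:**
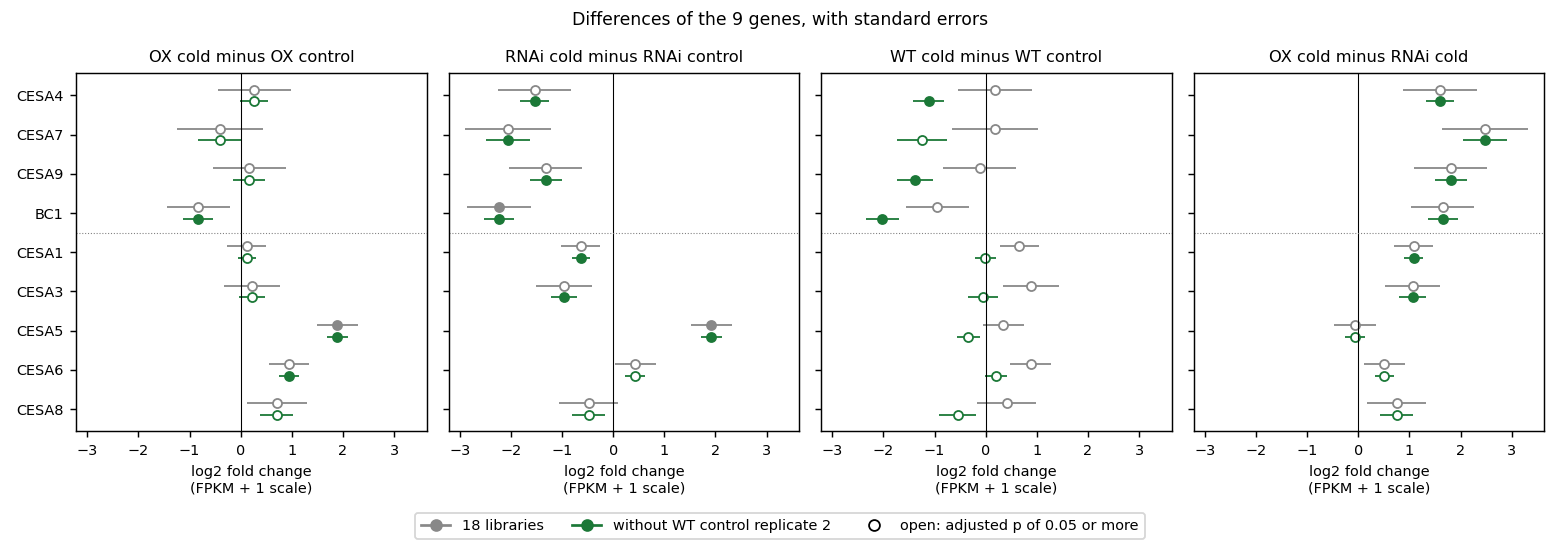
Log2 fold change of each member (points, with bars of 1 SE) for cold against control in OX, RNAi and WT leaves and for cold OX against cold RNAi leaves. Grey points are from 18 libraries, green points from 17 without WT control replicate 2, and filled points had a limma adjusted p under 0.05. The dotted line parts the 4 secondary wall genes from the 5 primary wall genes, among which CESA5 stands at 1.89 in OX and 1.92 in RNAi.

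The level of BC1 relative to CESA4 separated the conditions in every line, a ratio chosen after its values were seen and given with no test. BC1 stood at 0.226, 0.297 and 0.283 times the FPKM of CESA4 in cold OX leaves, against 0.570, 0.536 and 0.682 times in control OX leaves. The ratio was 0.231, 0.220 and 0.216 in cold RNAi leaves, against 0.423, 0.430 and 0.432 in control RNAi leaves. It was 0.215, 0.203 and 0.195 in cold WT leaves, against 0.420, 0.600 and 0.420 in control WT leaves. All 9 cold libraries thus lay at 0.195 to 0.297 and all 9 control libraries at 0.420 to 0.682, with WT control replicate 2 on the side of its group although both of its genes were low.

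The share of CESA7 in the summed CESA4, CESA7 and CESA9 level separated cold from control libraries in OX alone, and is given with no test. CESA7 made up 43.7% to 46.7% of that sum in cold OX leaves and 54.6% to 57.0% in control OX leaves. In cold RNAi leaves it made up 27.4% to 39.9%, and in control RNAi leaves 27.7% to 50.1%. In WT it made up 33.9% to 45.7% in the cold and 34.0% to 47.5% under control conditions. The OX ranges were apart, and those of RNAi and WT overlapped.

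CESA5 was the primary wall gene that rose after cold in both transgenic lines. It encodes a catalytic subunit of the primary wall complex. It had 38.1, 65.5 and 56.3 FPKM in cold OX leaves, against 13.8, 14.7 and 11.6 FPKM in control OX leaves. It had 62.1, 57.6 and 45.1 FPKM in cold RNAi leaves, against 13.4, 13.4 and 14.1 FPKM in control RNAi leaves. It had 14.8, 14.5 and 22.6 FPKM in cold WT leaves, against 19.2, 4.47 and 24.7 FPKM in control WT leaves. All 6 cold libraries of the transgenic lines lay above all of the other 12, and the WT groups overlapped. Taken pairwise, cold OX lay wholly above cold WT for 24.7% of tested genes and cold RNAi above cold WT for 24.8%. Cold lay wholly above control for 16.4% in OX and 20.6% in RNAi. The share for the 6 libraries against the 12 was not computed.

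CESA5 rose by 1.89 ± 0.40 on the log2 scale in OX (limma adjusted p = 0.00176), where 13.6% of tested genes were called higher. It rose by 1.92 ± 0.40 in RNAi (limma adjusted p = 0.00126), where 16.9% of tested genes were called higher. In WT the difference was 0.34 ± 0.40 over 18 libraries (limma adjusted p = 0.509) and -0.34 ± 0.23 over 17 (limma adjusted p = 0.236). Of the 5 primary wall genes CESA5 was the only 1 called between cold and control over 18 libraries in OX or RNAi, and 0 were called in WT, where 1 (CESA6) was higher at an unadjusted p under 0.05, as were 16.8% of tested genes. Both rises were called under all 12 alternatives, at 1.73 to 2.11 in OX and 1.83 to 2.11 in RNAi.

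After cold, CESA5 was higher than in WT by 1.56 ± 0.40 in OX (limma adjusted p = 0.0193), where 9.49% of tested genes were called higher. It was higher by 1.63 ± 0.40 in RNAi (limma adjusted p = 0.00810), where 15.7% of tested genes were called higher. The OX call was lost without OX cold replicate 2 or 3, or WT cold replicate 1 or 2 (limma adjusted p of 0.0742, 0.0640, 0.0823 and 0.0753), and the RNAi call held under all 12 alternatives. Cold OX and cold RNAi leaves differed by -0.07, with a 95% interval of -0.92 to 0.79 (limma adjusted p = 0.952).

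The test of the cold response itself gave a CESA5 response in RNAi larger than in WT by 1.58 ± 0.57 (limma adjusted p = 0.0471), where 18.1% of tested genes were called higher. In OX the excess over WT was 1.55 ± 0.57 (limma adjusted p = 0.0918), where 7.25% of tested genes were called higher. Over 17 libraries both were called, at 2.27 ± 0.30 for RNAi (limma adjusted p = 0.000344) and 2.23 ± 0.30 for OX (limma adjusted p = 0.00159). The RNAi call over 18 libraries was close to the threshold, since leaving out a single library ended it for 10 of the 12 libraries of these groups (limma adjusted p of 0.0528 to 0.109), all but WT control replicate 2 and WT cold replicate 3. Tested genes called higher made up 15.7% for RNAi and 6.35% for OX over 17 libraries. The responses of OX and RNAi differed by -0.03, with a 95% interval of -1.24 to 1.18.

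CESA5 made up a larger share of the summed primary wall FPKM in these libraries, 7.37% to 18.5% in the 6 cold OX and RNAi libraries and 2.10% to 4.03% in the other 12. Its share was 7.37%, 7.99% and 9.07% in cold OX leaves, against 3.51%, 2.26% and 2.37% in control OX leaves. It was 18.5%, 13.7% and 14.7% in cold RNAi leaves, against 3.04%, 2.15% and 3.19% in control RNAi leaves. The cold RNAi shares were all above the cold OX shares, while the CESA5 levels of the lines overlapped and the primary wall sum was 354 ± 59.8 FPKM in cold RNAi leaves and 653 ± 153 FPKM in cold OX leaves (SD, n = 3 each). The plot of shares and ratios within libraries shows both measures.

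**Figure D3:**
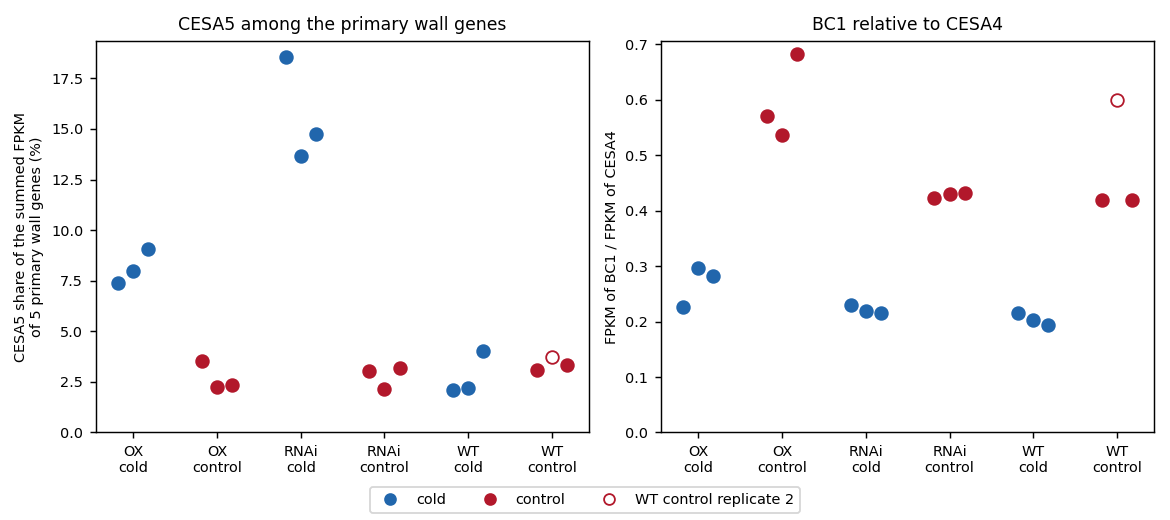
CESA5 as a percentage of the summed FPKM of the 5 primary wall genes, and the ratio of BC1 to CESA4 FPKM, in each library by group. The open symbol is WT control replicate 2. CESA5 shares reach 7.37% to 18.5% in cold OX and RNAi leaves, and the BC1 to CESA4 ratio is at most 0.297 in cold libraries and at least 0.420 in control libraries.

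CESA1 and CESA3, the most abundant members, also encode catalytic subunits of the primary wall complex. CESA1 had 189, 248 and 206 FPKM in cold OX leaves, against 160.1, 229.7 and 204 FPKM in control OX leaves. It had 99.2, 106 and 95.4 FPKM in cold RNAi leaves, against 133, 188 and 152 FPKM in control RNAi leaves. It had 199.5, 226 and 174 FPKM in cold WT leaves, against 165, 49.9 and 242 FPKM in control WT leaves. The cold RNAi libraries were below the libraries of every other group, save WT control replicate 2. Taken pairwise, cold RNAi lay wholly below control RNAi for 37.4% of tested genes, below cold WT for 23.3% and below cold OX for 19.4%. The share for all groups at once was not computed.

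CESA3 had 209, 368 and 264 FPKM in cold OX leaves, against 176, 315 and 227 FPKM in control OX leaves. It had 115, 183 and 105 FPKM in cold RNAi leaves, against 234, 327 and 217 FPKM in control RNAi leaves. It had 374, 322 and 286 FPKM in cold WT leaves, against 330.1, 46.7 and 346 FPKM in control WT leaves. Only the RNAi groups were apart, again with cold the lower.

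In RNAi leaves after cold, CESA1 differed from control by -0.64 ± 0.38 (limma adjusted p = 0.191) and CESA3 by -0.97 ± 0.54 (limma adjusted p = 0.163). Over 17 libraries both fell (limma adjusted p = 0.00871 for CESA1 and 0.00600 for CESA3), where 31% of tested genes were called lower. Against cold WT leaves, cold RNAi leaves had less of both over 17 libraries, by -0.98 ± 0.18 for CESA1 (limma adjusted p = 0.000974) and -1.32 ± 0.26 for CESA3 (limma adjusted p = 0.00152). Neither was called over 18 (limma adjusted p = 0.0669 for CESA1 and 0.0841 for CESA3). In this comparison 15.3% of tested genes were called lower over 17 libraries and 11.9% over 18.

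Cold OX leaves exceeded cold RNAi leaves by 1.08 ± 0.38 for CESA1 and 1.06 ± 0.54 for CESA3, called over 17 libraries (limma adjusted p = 0.00184 and 0.0184) and not over 18 (limma adjusted p = 0.107 and 0.272). Of tested genes 6.94% were called higher there over 17 libraries. In WT and OX, neither CESA1 nor CESA3 was called between cold and control over 17 libraries. The 95% intervals were -0.44 to 0.42 for CESA1 in WT and -0.26 to 0.50 for CESA1 in OX. Without WT control replicate 3, which leaves replicate 2 as 1 of 2, CESA1 in WT was called at 1.12 (limma adjusted p = 0.0169). The RNAi response differed from that of WT by -1.29 ± 0.54 for CESA1 and -1.85 ± 0.77 for CESA3 over 18 libraries (limma adjusted p = 0.0818 and 0.0799), and by -0.63 ± 0.27 and -0.91 ± 0.39 over 17 (limma adjusted p = 0.0992 and 0.0950), so neither was called in either fit. Without WT control replicate 3 it was called lower for CESA1 (-1.76, limma adjusted p = 0.0116) and CESA3 (-2.34, limma adjusted p = 0.0293), and for CESA3 also without WT control replicate 1 (-2.31, limma adjusted p = 0.0337).

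CESA6, a further primary wall subunit, had 38.7, 48.4 and 45.8 FPKM in cold OX leaves, against 17.6, 31.5 and 20.4 FPKM in control OX leaves. It had 28.0, 32.7 and 31.5 FPKM in cold RNAi leaves, against 18.4, 29.6 and 20.7 FPKM in control RNAi leaves. It had 38.1, 38.7 and 35.7 FPKM in cold WT leaves, against 30.4, 7.17 and 34.8 FPKM in control WT leaves. The groups were apart in OX and WT, with cold the higher. In OX the difference was 0.94 ± 0.40 (limma adjusted p = 0.0751) and was called over 17 libraries (limma adjusted p = 0.00119), where 14.5% of tested genes were called higher. It was also called without OX control replicate 2 (1.18, limma adjusted p = 0.0471). In WT it was 0.88 ± 0.40 (limma adjusted p = 0.0807) and 0.20 ± 0.22 over 17 (limma adjusted p = 0.482), while leaving out WT control replicate 1 or 3 gave 1.17 and 1.27 (limma adjusted p of 0.0380 and 0.0188).

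CESA8, the last of the primary wall genes, had 42.5, 89.5 and 49.5 FPKM in cold OX leaves and 27.4, 56.4 and 27.0 FPKM in control OX leaves. It had 30.6, 42.1 and 29.6 FPKM in cold RNAi leaves, and 41.7, 65.8 and 38.8 FPKM in control RNAi leaves. It had 76.8, 64.4 and 42.7 FPKM in cold WT leaves, and 83.3, 11.1 and 92.3 FPKM in control WT leaves. Cold and control overlapped in each line over 18 libraries, and without WT control replicate 2 the cold WT libraries lay below the control WT libraries. The latter held for 47.4% of tested genes. CESA8 was called in none of the 12 comparisons of either fit. The nearest was control OX against control WT over 17 libraries, at -1.31 ± 0.36 (limma adjusted p = 0.0564).

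In control leaves limma called 0 of the 9 members between any pair of lines in either fit. Over 18 libraries it called 4% of tested genes for OX against WT, 2.61% for RNAi against WT and 1.73% for OX against RNAi. At an unadjusted p under 0.05 it found 0 of 9 members in each over 18 libraries. Over 17 libraries it found 4 of 9 lower in OX than in WT, 4 of 9 lower in RNAi than in WT, and 0 between OX and RNAi. At that threshold 10.3% of tested genes were lower in OX than in WT and 10.4% lower in RNAi than in WT. The shares of tested genes called over 17 libraries were 3.81%, 0.834% and 2.24%.

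Over the classes, the mean log2(FPKM + 1) of the secondary wall genes lay further below that of the primary wall genes in cold leaves. This difference, secondary minus primary, was -1.29 ± 0.14 in cold OX leaves and -0.32 ± 0.40 in control OX leaves (SD, n = 3 each). It was -2.51 ± 0.53 in cold RNAi leaves and -0.67 ± 0.07 in control RNAi leaves (SD, n = 3 each). It was -1.88 ± 0.34 in cold WT leaves (SD, n = 3), against -1.07 ± 0.83 in control WT leaves (SD, n = 3) or -0.59 ± 0.04 without replicate 2 (SD, n = 2). Per library, the cold values of each line were below its control values, save WT control replicate 2 at -2.03, which lay among the cold WT values of -2.06, -1.48 and -2.09.

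The class means came apart in different ways by line. In OX the secondary mean was 5.29 ± 0.44 in cold and 5.49 ± 0.20 in control leaves, and the primary mean 6.59 ± 0.34 and 5.81 ± 0.34. In RNAi the secondary mean was 3.41 ± 0.71 in cold and 5.19 ± 0.22 in control leaves, and the primary mean 5.92 ± 0.19 and 5.86 ± 0.25. In WT the secondary mean was 4.39 ± 0.38 in cold leaves, against 5.83 ± 0.22 in the control leaves without replicate 2, and the primary mean was 6.27 ± 0.09 and 6.42 ± 0.18 (SD, n = 3 in cold and 2 in control). With replicate 2 the control WT means were 4.56 ± 2.20 and 5.64 ± 1.37 (SD, n = 3). The wider gap in the cold went with a higher primary mean in OX and with a lower secondary mean in RNAi and, without replicate 2, in WT. The primary means hide unlike members. In RNAi the log2 fold changes were 1.92 for CESA5, 0.43 for CESA6, -0.48 for CESA8, -0.64 for CESA1 and -0.97 for CESA3. In OX they were 1.89, 0.94, 0.71, 0.12 and 0.23 in the same order. The secondary mean in OX also hides unlike members, at 0.27 for CESA4, 0.17 for CESA9, -0.41 for CESA7 and -0.83 for BC1.

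**Figure D4:**
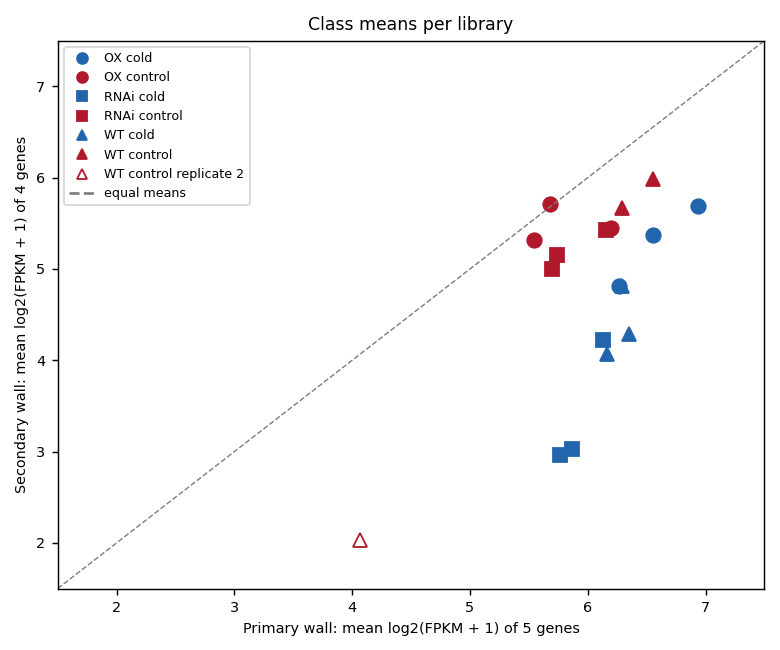
Mean log2(FPKM + 1) of the 5 primary wall genes (horizontal) and of the 4 secondary wall genes (vertical) in each of the 18 libraries, coloured by condition with a symbol for each line, and a dashed line where the means are equal. Cold RNAi replicates 1 and 3 lie lowest on the vertical axis apart from WT control replicate 2, drawn open, whose secondary mean is 2.03 and primary mean 4.07.

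The secondary wall genes varied together over the libraries, and CESA5 varied apart from CESA1, CESA3 and CESA8 but not from CESA6. Between log2(FPKM + 1) values, Pearson's r of the 6 secondary wall pairs was 0.873 to 0.974 over 18 libraries and 0.866 to 0.957 over 17. The 10 primary wall pairs had r of 0.147 to 0.926 over 18 libraries and -0.379 to 0.851 over 17. The 20 pairs between the classes had r of -0.175 to 0.907 over 18 libraries and -0.508 to 0.811 over 17. Their median over 17 was 0.445, against 0.477 for the primary and 0.898 for the secondary wall pairs. CESA1 and CESA3 had r of 0.589 to 0.811 with the secondary wall genes over 17 libraries, above their r with CESA6. The r of CESA5 was 0.711 with CESA6 over 18 libraries and 0.571 over 17, and with CESA1, CESA3 and CESA8 it was 0.147 to 0.322 over 18 and -0.379 to -0.02 over 17. Without CESA5 the 6 remaining primary pairs ran from 0.382 to 0.851 over 17 libraries, lowest for CESA6 with CESA1 (0.382) and with CESA3 (0.384). The points share libraries and their scaling, and these values are descriptions.

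Each secondary wall gene was close to the mean of the other 3 when 13677 genes with a mean of at least 5 FPKM were ranked by r over 18 libraries. CESA9 came first (r = 0.971), CESA4 at place 4, CESA7 at place 8 and BC1 at place 31. Over 17 libraries they held places 4, 10, 28 and 9. In the primary class, ranked among 13676 genes, CESA6 was at place 9, CESA8 at 71, CESA3 at 163, CESA1 at 206 and CESA5 at 2719 over 18 libraries. Over 17 libraries CESA6 was at place 12, CESA8 at 115, CESA1 at 1452, CESA3 at 1688 and CESA5 at 8419. For all but CESA5 itself, the mean used for the ranking included CESA5, so these places depend on it. Over 17 libraries r was 0.851 for CESA1 with CESA3 and 0.834 for CESA3 with CESA8. The lowest pair without CESA5, CESA6 with CESA1, had 0.382. Among genes outside the members, Os05g0563600 (r = 0.964 over 18 libraries and 0.950 over 17), Os08g0489300 (0.962 and 0.939), Os06g0589500 (0.960 and 0.962), Os05g0135500 (0.958 and 0.952) and Os10g0389800 (0.953 and 0.940) were nearest to the secondary wall mean. Os06g0223800 (0.955 and 0.869), Os03g0788600 (0.953 and 0.862), Os02g0556700 (0.952 and 0.916), Os09g0533900 (0.950 and 0.868) and Os10g0512800 (0.942 and 0.852) were nearest to the primary wall mean.

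Of 26 other wall genes listed, 13 had a checked name and 11 of these passed the filter on low values. In cold against control leaves, limma called 1 higher and 1 lower in OX, 1 higher and 5 lower in RNAi, and 2 higher and 1 lower in WT. Of all tested genes 13.6% were called higher and 22.4% lower in OX, 16.9% and 28.1% in RNAi, and 14% and 31.7% in WT. Over 17 libraries it called 1 higher and 2 lower in OX, 1 higher and 6 lower in RNAi, and 2 higher and 4 lower in WT. The shares of tested genes were then 14.5% and 25.5% in OX, 18% and 31% in RNAi, and 11.4% and 29.9% in WT. GLU1, a membrane-bound glucanase of the Korrigan type that acts with cellulose synthesis, was the gene higher in all lines, by 2.44 ± 0.22 in OX, 2.99 ± 0.22 in RNAi and 2.35 ± 0.22 in WT (limma adjusted p of 4.72e-07, 3.78e-08 and 8.01e-07).

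GLU1 had 32.7, 26.0 and 40.4 FPKM in cold OX leaves, against 5.91, 3.24 and 7.05 FPKM in control OX leaves. It had 27.1, 24.6 and 28.2 FPKM in cold WT leaves, against 4.96, 4.43 and 3.86 FPKM in control WT leaves. It was not low in WT control replicate 2, the second of these control values.

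Over 18 libraries the 5 genes called lower in cold against control RNAi leaves were of lignin and xylan, polymers laid down with cellulose in secondary walls. CAD2 (cinnamyl alcohol dehydrogenase, lignin) fell by 2.82 ± 0.64 (limma adjusted p = 0.00219) and COMT1 (caffeic acid O-methyltransferase, lignin) by 2.55 ± 0.70 (limma adjusted p = 0.00821). 4CL3 (4-coumarate CoA ligase, lignin) fell by 1.94 ± 0.63 (limma adjusted p = 0.0203). IRX9 and IRX14, of xylan synthesis, fell by 1.82 ± 0.32 and 0.97 ± 0.31 (limma adjusted p of 0.000317 and 0.0196). IRX9 also fell in OX, by 1.82 ± 0.32 (limma adjusted p = 0.000372).

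The other calls in WT over 18 libraries were CSLF6, which makes mixed-linkage glucan, and SUS2, a sucrose synthase. CSLF6 rose in cold against control WT leaves by 1.73 ± 0.51 (limma adjusted p = 0.0122), or by 0.85 ± 0.28 over 17 libraries (limma adjusted p = 0.0224). SUS2 fell by 0.69 ± 0.25 (limma adjusted p = 0.0345), or by 0.97 ± 0.24 over 17 (limma adjusted p = 0.00435). Over 17 libraries further genes were called lower. CSLF6 then fell in RNAi, by 1.15 ± 0.25 (limma adjusted p = 0.00132), and CAD2 fell in OX, by 1.19 ± 0.24 (limma adjusted p = 0.00111). In WT, CAD2, 4CL3 and IRX9 fell by 0.80 ± 0.27, 0.98 ± 0.27 and 0.94 ± 0.24 (limma adjusted p of 0.0258, 0.00962 and 0.00642).

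In cold RNAi against cold WT leaves CAD2, COMT1 and CSLF6 were lower over 18 libraries, by -2.14 ± 0.64, -2.07 ± 0.70 and -1.81 ± 0.51 (limma adjusted p of 0.0221, 0.0394 and 0.0162), where 11.9% of tested genes were called lower. Over 17 libraries 4CL3, IRX14 and BC12 (a kinesin) were called lower as well, where 15.3% of tested genes were called lower. The cold response of RNAi was below that of WT for CAD2 (-3.18 ± 0.90), COMT1 (-2.98 ± 0.99), CSLF6 (-2.88 ± 0.72), IRX14 (-1.40 ± 0.44) and IRX9 (-1.35 ± 0.45) over 18 libraries, with limma adjusted p of 0.00854 to 0.0354, where 12.4% of tested genes were called lower. Over 17 libraries these calls held save that of IRX9 (limma adjusted p = 0.0598), where 10.1% of tested genes were called lower. Cold OX leaves exceeded cold RNAi leaves for CSLF6, CAD2, COMT1, 4CL3 and IRX14 over 17 libraries, by 0.88 to 1.64 (limma adjusted p of 0.00215 to 0.0168). Of tested genes 6.94% were called higher there. Over 18 libraries 0 of the 11 genes were called in that comparison, where 5.94% of tested genes were called. An unadjusted p under 0.05 in limma was found for 4 of the 11 genes, and for 21.9% of tested genes.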

How the data were processed

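The authors deposited 1 table of FPKM values per gene for 18 libraries. Per the labels' protocols RNA was taken with Trizol and libraries were made with a TruSeq kit, and the submitters' processing notes name Bowtie 0.12.2. Build, annotation, counting tool and filters are unknown from the sources used here. Read totals are unknown and steps in the low values gave no single relative depth, so no counting interval is printed. No 2 libraries held identical values (0 pairs).

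Values were analysed as log2(FPKM + 1) without further scaling, so a fold change understates that of low genes. The 23175 genes with at least 1 FPKM in at least 3 libraries were fitted in limma 3.58.1 (R 4.3.3) as 6 group means with a variance trend, giving 12 comparisons. Calls needed an adjusted p under 0.05 (Benjamini-Hochberg, over all genes tested). The fit without WT control replicate 2 tested 23029 genes. It was planned for comparisons that use WT control, and added after seeing the data for the others. The procedure was tested on simulated data.

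The members and lists were chosen with earlier results of these data known. All 9 members are named, of the other wall genes up to 4 called ones per role, and per class the 5 most alike genes. Names were checked against assembly ASM3414082v1 by chromosome and locus order (9 of 9 members, 13 of 26 other wall genes and 12 of 12 markers passed). Alternatives were a pseudocount of 0.1, no filter on low values, median-ratio scaling, a block for the replicate number, the compared groups alone and leaving out each library. Promoter and protein sequences were not analysed here.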

Additional observations from a re-analysis of the deposited data

Results flagged for a closer look

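The cold response of CESA5, a primary wall cellulose synthase gene, differed between RNAi and WT leaves by 1.58 on the log2 scale, by a test of the difference itself (limma adjusted p = 0.0471). Over 17 alternatives the difference ranged from 1.15 to 2.27, with an adjusted p of up to 0.109, and it was called in 3 of them. Its largest value was that without WT control replicate 2.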

How the results depend on the processing

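Leaving out WT control replicate 2 changed most: CESA4 in cold against control WT leaves was -1.12, against 0.18 with it, a reversal (0.87 without WT control replicate 3). Leaving that library out of the shared spread, an alternative chosen after seeing the data, gave the following counts for comparisons without control WT. The secondary and primary genes called were 1 and 2 for cold against control OX, 4 and 3 for cold against control RNAi, and 4 and 2 for cold OX against cold RNAi. They were 2 secondary genes for cold OX against cold WT, and 2 secondary and 3 primary genes for cold RNAi against cold WT. Over all genes, 9200, 11281, 2287, 3853 and 7544 were called in these comparisons in that order, against 8343, 10429, 1377, 2983 and 6397 with it, and 27 for the OX minus RNAi response, against 11. The cause of the library's low values was not tested.

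With the compared groups alone, 2 primary genes were called for cold against control OX, 4 secondary and 3 primary for cold against control RNAi, 1 secondary for cold OX against cold WT, 1 secondary and 4 primary for cold RNAi against cold WT, and 4 secondary and 1 primary for cold OX against cold RNAi. Over all genes these comparisons called 6079, 10421, 3893, 7201 and 1189 in that order. Genes called were then 180 for control OX against WT, 58 for control RNAi against WT, 223 for control OX against RNAi and 1546 for the OX minus WT response, against 928, 604, 401 and 2402. The RNAi minus WT response of CESA5 left 0 primary genes called there, at a pseudocount of 0.1, without the filter and with the replicate block. For the OX minus RNAi response 5 genes were called at the pseudocount of 0.1 and 22 without the filter. Median-ratio scaling called 1 primary gene in WT and 2 in OX for cold against control, each with CESA6 added (1.15 and 1.14), and reversed no member call. Of the genes called, 52.7% were higher in WT, 55.8% in OX and 52.8% in RNAi, for cold against control under that scaling, against 30.7%, 37.8% and 37.6%. This share was 53.4% for control RNAi against WT, 46.3% for cold OX against cold RNAi, 62.8% for cold OX against cold WT and 59.6% for the OX minus WT response, against 33.3%, 63.2%, 73.7% and 70.0%. The cause of these changes was not tested.

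The replicate block called 373 genes for control RNAi against WT, against 604, and CESA5 in the RNAi minus WT response had an adjusted p of 0.0584 in limma. Libraries of the same number did not pair: of 45 pairs 16 had a correlation of deviations over 0.1 (range -0.595 to 0.409), and 7 of 18 libraries correlated best with their own number.

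Leaving out each library of the compared groups in turn, so without WT control replicate 2 only where control WT was compared, gave 1 to 2 primary genes for cold against control OX, 0 to 2 in WT, 0 to 1 for cold OX against cold WT and for the OX minus WT response, and 0 to 2 for the RNAi minus WT response. It gave 1 to 2 secondary genes for cold against control RNAi, 0 to 3 in WT and 0 to 1 for the RNAi minus WT response. Genes called ranged from 390 to 1018 for control OX against WT, 116 to 988 for control RNAi against WT, 263 to 1188 for control OX against RNAi, 1287 to 2760 for cold OX against cold WT, 4033 to 5635 for cold RNAi against cold WT and 446 to 1634 for cold OX against cold RNAi. They ranged from 1054 to 2428, 5107 to 7055 and 5 to 13 for the responses of OX minus WT, RNAi minus WT and OX minus RNAi. For cold against control they ranged from 6746 to 8360 in OX, 8705 to 9359 in RNAi and 8571 to 9876 in WT. The class difference ranged from -1.32 to -0.59 in control WT leaves.

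Of 1413 member values under the alternatives, 77 changed sign without being called in either. Depth is unknown, so what it limits cannot be stated.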
